A study of Mus musculus with 15 samples.

Results

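Lgr5, Ascl2, Axin2, Rnf43, Smoc2, Sox9, Ephb2, Cdca7, Lrig1 and Myc are genes of the stem cells and dividing cells at the base of the intestinal crypt, most of them targets or regulators of Wnt signalling. The 10 genes were taken by symbol, each was found on 1 locus, and the table holds 23589 loci with a gene name. RNA-Seq was carried out on the colon (intestinal mucosa), liver, epididymal fat, hypothalamus and hippocampus of male C57BL/6 mice on 3 diets. AL mice ate ad libitum and were 5 months of age. DR mice received a 40% restriction of food from 4 months of age for 1 month and were also 5 months of age, and DR-AL mice were restricted in the same way, then ate ad libitum for 2 months and were 7 months of age. Diet and age therefore cannot be told apart in DR-AL. RNA of 5 mice was pooled for each library and each tissue and diet gave 1 library, so the 3 colon libraries have no replicates and every comparison of diets within a tissue compares 2 libraries.

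In the lining of the colon, stem cells at the crypt base renew themselves and give rise to dividing daughter cells, which move up the crypt and mature. Wnt proteins hold these cells in the dividing state: a Wnt bound to a Frizzled receptor and its Lrp co-receptor stops the destruction of beta-catenin, which enters the nucleus and switches on target genes together with TCF/LEF factors. R-spondins, bound by Lgr receptors, strengthen the signal by removing the ligases that clear Frizzled from the cell surface. Several targets, Rnf43 and Axin2 among them, in turn damp the signal.

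Upstream sequence is shown for Ascl2, which had the largest difference by diet of the 10 genes in the colon, and for Cdca7, whose upstream sequence holds a motif that few promoters have. Both lines read 5′ to 3′ on the strand of the gene, from RefSeq on GRCm38.p6. Each line ends where the annotated gene begins. The Ascl2 line is chr7:142969265-142969514 on the minus strand, and the Cdca7 line is chr2:72475969-72476158 on the plus strand. Capitals mark a CCAAT box, in either orientation, in the first line, and the E2F motif in the second.
Ascl2: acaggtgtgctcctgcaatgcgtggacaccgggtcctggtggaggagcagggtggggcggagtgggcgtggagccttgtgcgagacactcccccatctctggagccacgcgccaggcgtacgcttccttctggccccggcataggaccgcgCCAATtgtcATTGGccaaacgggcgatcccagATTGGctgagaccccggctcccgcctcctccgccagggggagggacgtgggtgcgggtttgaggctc
Cdca7: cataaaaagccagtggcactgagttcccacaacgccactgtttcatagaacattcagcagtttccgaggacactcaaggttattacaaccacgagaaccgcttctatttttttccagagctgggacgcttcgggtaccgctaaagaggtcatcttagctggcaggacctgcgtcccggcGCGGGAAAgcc

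RefSeq promoters were at hand for 6 of the 10 genes (Ascl2, Axin2, Cdca7, Ephb2, Lrig1 and Rnf43), and the 250 bases before the start site were searched on both strands for 5 motifs, none of which contains another. The E2F motif (TTTCCCGC), named for factors that act when DNA replication begins, was found in Cdca7 alone, against 0.929% of 27025 promoters. The CCAAT box was found in Ascl2, Ephb2 and Lrig1, against 34.5% of promoters, and Ascl2 held 3 copies. The GC box (GGGCGG) was found in Ascl2, Axin2, Cdca7 and Lrig1, against 32.9% of promoters. The TCF/LEF core (CTTTGA), the letters that the nuclear partners of beta-catenin bind, was in none of the 6, against 14.05% of promoters, and the E-box (CACGTG) of Myc was in none, against 6.05%. Sequence outside these 250 bases was not searched and 6 promoters are few, so nothing is drawn from an absence.

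The labels of the colon libraries were checked first. An epithelial list (Epcam, Cdh1, keratins, Vil1, Cdx1 and Cdx2) summed to between 14364 and 16999 CPM (counts relative to the total of the library) in the colon libraries and to at most 544 CPM in any other library, and posterior Hox genes, which mark the hind part of the gut, summed to between 480 and 649 CPM against at most 11.5 CPM elsewhere. Smooth muscle genes (60.1, 78.8 and 28.7 CPM for AL, DR and DR-AL), stromal genes (41.5, 58.1 and 40.0 CPM) and immune genes (37.8, 19.5 and 53.6 CPM) were low in the colon libraries but differed between them. The fat libraries carried RNA of other organs, in amounts that differed by diet: genes of sperm precursors summed to 3.24, 466 and 2365 CPM for AL, DR and DR-AL, and epididymis genes to 908, 3337 and 5314 CPM. Liver genes summed to 4211 CPM in AL fat against 37.4 CPM in DR fat and 9.25 CPM in DR-AL fat. Counts on named loci ranged from 21767088 to 40500130 per library and were 26554699 (AL), 33422262 (DR) and 25043727 (DR-AL) in the colon.

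In the colon, 8 of the 10 genes were higher in the DR library than in the AL library and none was lower. A gene was called where the Z test of its share of the counts had a Benjamini-Hochberg adjusted p under 0.05 and its log2 fold change was at least 0.32 in size. By that rule 9.04% of 18242 genes were higher in DR and 10.6% were lower. The median log2 fold change of the 10 genes was 0.44, beside 0.01 over the 13714 genes that averaged 10 counts or more, and all 10 values were above 0. After the return to AL feeding, 4 of the 10 were still higher than in AL and none was lower, against 5.83% of genes higher and 8.5% lower, with a median of 0.21 beside -0.01. Both comparisons use the same AL library. From DR to DR-AL, 3 were lower and none higher, against 7.67% of genes lower and 6.78% higher, with a median of -0.20 beside -0.02.

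The Z test allows for counting error alone and so cannot tell a difference between diets from a difference between 2 pools of mice. When a biological coefficient of variation of 0.1 was assumed in edgeR's exact test, 1 of the 10 genes passed for DR against AL (Ascl2, adjusted p = 0.0198) and 1 for DR-AL against AL (Myc, adjusted p = 0.0473), where 1.68% and 0.619% of genes were higher. For DR-AL against DR none passed, where 1.77% of genes were lower. With the coefficient of variation of 0.164 that edgeR estimated over the 3 colon libraries without regard to diet, none of the 10 passed in any comparison, where 0.378% of genes were higher in DR and 0.132% higher in DR-AL than in AL, and 0.729% were lower in DR-AL than in DR.

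**Figure D1:**
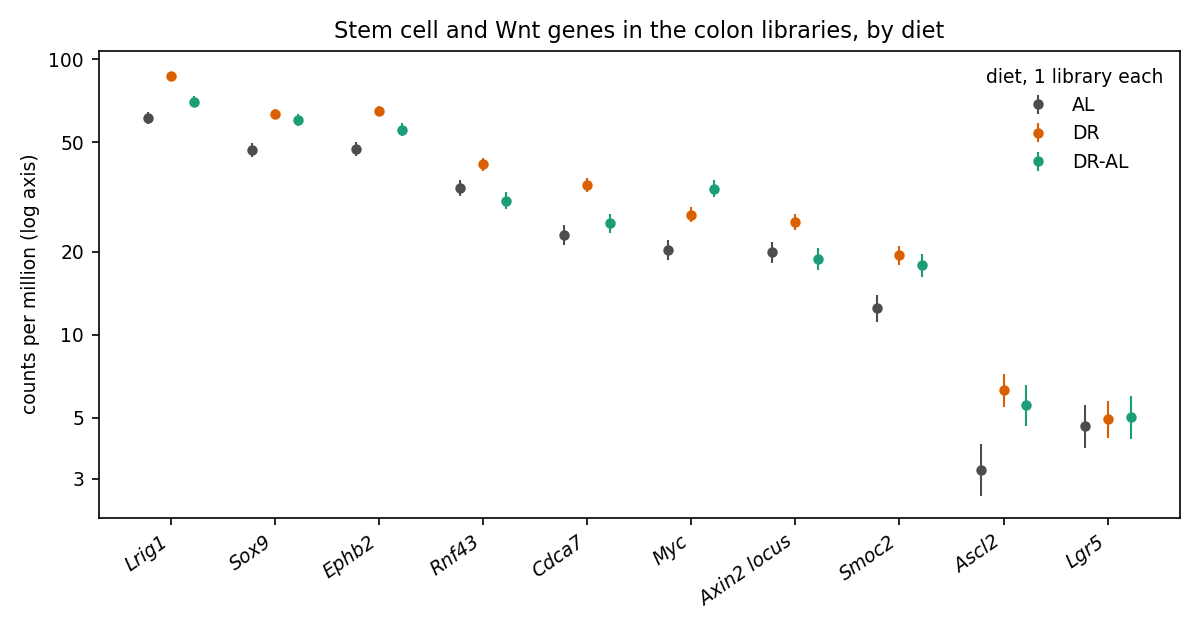
Level of each of the 10 genes in the 3 colon libraries, in CPM on a log axis, with 1 point per library and bars for the exact 95% counting interval. The DR point lies above the AL point for every gene, narrowly so for Lgr5, and the DR-AL point of Ascl2, Smoc2, Sox9 and Myc stays well above AL while that of Rnf43 and the Axin2 locus lies below it.

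Lgr5, the R-spondin receptor used to mark crypt stem cells, was at nearly the same level in the 3 colon libraries. Its counts were 124, 165 and 126 for AL, DR and DR-AL, which is 4.67, 4.94 and 5.03 CPM. Its DR to AL fold was 1.06 with a 95% counting interval from 0.832 to 1.35, and its DR-AL to AL fold was 1.08 (0.834 to 1.39). Neither difference was detectable at this depth. In bulk RNA, fewer cells of a type and less of the RNA in each cell cannot be told apart. The gene lies at chr10:115450311-115587780 on the minus strand (GENCODE M21 on GRCm38, as for the positions that follow).

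Ascl2, a transcription factor that specifies intestinal stem cells, showed the largest DR to AL difference of the 10. Counts of 86, 210 and 139 for AL, DR and DR-AL gave 3.24, 6.28 and 5.55 CPM. DR was 1.94-fold AL and DR-AL was 1.71-fold AL, which on the log2 scale is 0.95 (95% interval 0.59 to 1.34) and 0.77 (0.38 to 1.18). DR-AL did not differ from DR by the test (log2 fold change -0.18, interval -0.50 to 0.14). The AL library was thus the low one, below both others by more than counting error. Ascl2 lies at chr7:142966829-142969264 on the minus strand.

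Smoc2, a secreted matrix protein that is both part of the Lgr5 cell signature and made by stromal cells, followed Ascl2. Its levels were 12.5, 19.4 and 17.8 CPM for AL, DR and DR-AL, from 331, 650 and 447 counts. Against AL, DR differed by 0.64 on the log2 scale (0.45 to 0.84) and DR-AL by 0.52 (0.31 to 0.73). Of 7 stromal genes, 5 were also higher in the DR library, against 9.04% of all genes. In DR-AL 1 was higher and 1 lower, against 5.83% and 8.5%. The part of stromal RNA in the Smoc2 difference was not tested. Smoc2 is at chr17:14279506-14404790 on the plus strand.

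Sox9, a transcription factor of crypt base cells that holds back differentiation, was at 46.9, 63.3 and 60.3 CPM in the same order, from 1246, 2115 and 1509 counts. Both log2 fold changes against AL were called, 0.43 (0.33 to 0.53) for DR and 0.36 (0.25 to 0.47) for DR-AL. As for Ascl2 and Smoc2, the DR-AL library was nearer to DR than to AL. Sox9 is at chr11:112782224-112787760 on the plus strand.

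Myc, the transcription factor that drives growth and ribosome synthesis downstream of Wnt, was the only one of the 4 genes called in both comparisons that was highest in DR-AL. The libraries held 541 (AL), 913 (DR) and 850 (DR-AL) counts, or 20.4, 27.3 and 33.9 CPM. On the log2 scale DR exceeded AL by 0.42 (0.27 to 0.58) and DR-AL exceeded it by 0.74 (0.58 to 0.89). From DR to DR-AL it was 0.31 (0.18 to 0.45), just short of the fold required, and DESeq size factors brought that comparison past it. Myc is at chr15:61985391-61990374 on the plus strand.

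Cdca7, a gene of dividing cells that is a target of Myc and E2F factors and marks crypt base progenitors, rose in DR and was back near AL in DR-AL. Levels were 23.0, 34.9 and 25.4 CPM for AL, DR and DR-AL, from 612, 1167 and 635 counts. The DR to AL log2 fold change was 0.60 (0.46 to 0.74), the DR-AL to AL value 0.14 (-0.02 to 0.30) was not called, and the DR-AL to DR value of -0.46 (-0.60 to -0.32) was. Cdca7 is at chr2:72476159-72486893 on the plus strand and carries the E2F motif shown above.

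Rnf43 and the Axin2 locus, both feedback inhibitors of Wnt signalling, were likewise lower in DR-AL than in DR. Rnf43, a ligase that removes Frizzled receptors, had 908, 1391 and 768 counts, or 34.2, 41.6 and 30.7 CPM, for AL, DR and DR-AL. Its DR to AL log2 fold change of 0.28 (0.16 to 0.41) fell short of the fold required, while DR-AL was lower than DR by 0.44 on the log2 scale (interval -0.57 to -0.31). The locus is at chr11:87662722-87735539 on the plus strand.

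Axin2, the scaffold that rebuilds the beta-catenin destruction complex and the gene most often read as a measure of Wnt signalling, could not be measured alone. The table joins Axin2 (chr11:108920349-108950783, plus strand) and its neighbour Cep112 (chr11:108425192-108860615), a centrosomal gene, on 1 locus spanning 525676 bases, so its counts are those of both genes. The joined locus had 529, 860 and 471 counts for AL, DR and DR-AL, or 19.9, 25.7 and 18.8 CPM. DR was higher than AL (log2 fold change 0.37, 0.21 to 0.53), DR-AL was lower than DR (-0.45, -0.62 to -0.29), and DR-AL did not differ from AL by the test (-0.08, -0.27 to 0.10).

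Ephb2 and Lrig1 had the same order of libraries, with DR highest, DR-AL next and AL lowest. Ephb2, a Wnt target and ephrin receptor that keeps cells in place along the crypt, was at 47.3, 64.9 and 55.6 CPM for AL, DR and DR-AL. DR was above AL by 0.46 on the log2 scale (0.35 to 0.56) and DR-AL by 0.23 (0.12 to 0.34), the latter under the fold required. Lrig1, which restrains ErbB receptors in stem cells, was at 61.3, 86.7 and 70.2 CPM, with 0.50 (0.41 to 0.59) for DR and 0.20 (0.10 to 0.29), not called, for DR-AL. Ephb2 is at chr4:136647539-136835988 and Lrig1 at chr6:94604529-94700158, both on the minus strand.

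**Figure D2:**
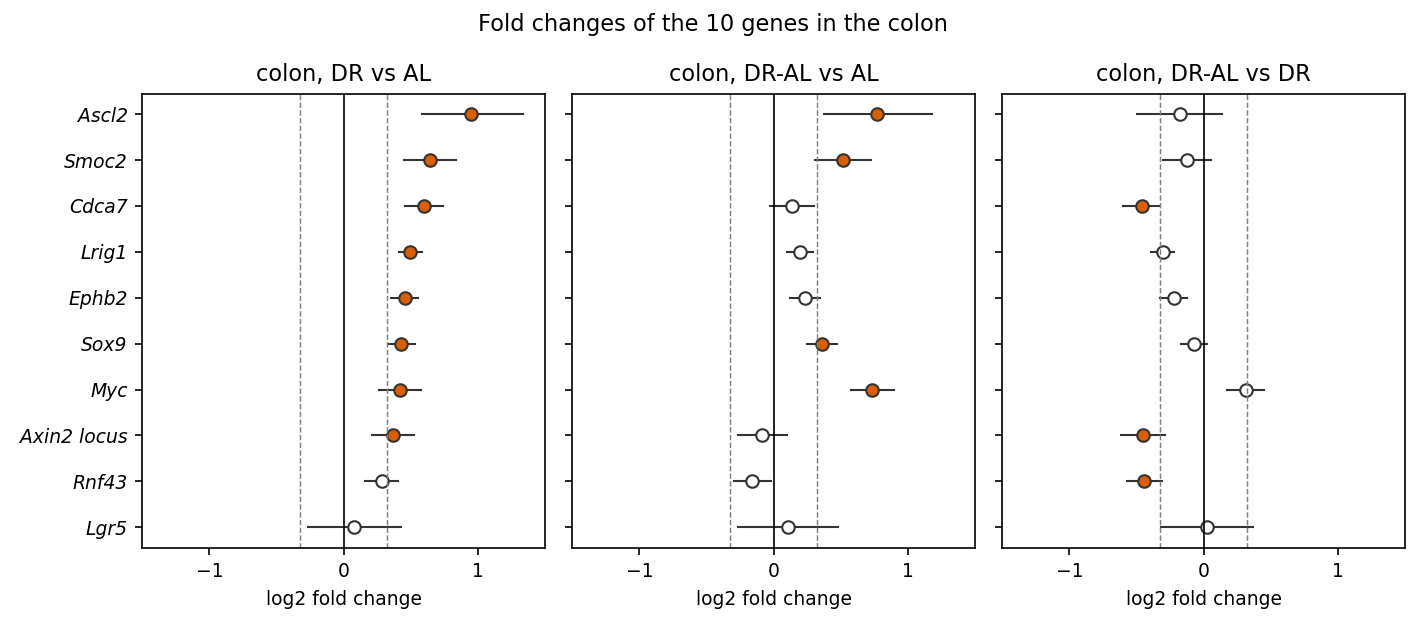
Log2 fold change of each gene in the 3 comparisons of the colon libraries, with bars for exact 95% counting intervals and dashed lines at the fold required. Filled points are called: 8 of 10 to the right for DR against AL, 4 to the right for DR-AL against AL, and 3 to the left for DR-AL against DR.

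The epithelial list itself summed to 14364 CPM in the AL library and to 16999 CPM in the DR library. Of its 8 genes 2 were called higher (Krt19, 0.50, and Krt18, 0.40, both keratins), against 9.04% of all genes. The other 6 were not called, and the median log2 fold change of the 8 was 0.14. Scaling the libraries to that list, rather than to all named genes, moved the median of all genes by -0.24 for DR against AL. It left 3 of the 8 calls (Ascl2, Smoc2 and Cdca7), with a median of 0.20 over the 10 genes. For DR-AL against AL it left 3 of 4 (Ascl2, Smoc2 and Myc). For DR-AL against DR it moved the median of all genes by 0.16 and ended the 3 calls of lower genes, while Myc was then called higher. Whether the share of epithelium in the pools accounts for the differences was not tested. Size factors and totals without the 10 most abundant genes gave the same 8 and the same 4 genes.

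The rest of the Wnt pathway did not move together in the colon. Beside the list counts given here and below, 9.04% of all 18242 genes were higher and 10.6% lower in DR than in AL. For DR-AL against AL the shares were 5.83% and 8.5%. Of 19 Wnt ligands, 14 had a count and were tested, with none higher and 2 lower in DR. The most counted, Wnt8b, had 4.03, 3.59 and 3.15 CPM for AL, DR and DR-AL and was not called. Wnt5a, a ligand of mesenchymal cells chosen after its values were seen, was at 3.35, 0.987 and 0.998 CPM (log2 fold change -1.75 and -1.73 against AL, from 89, 33 and 25 counts). R-spondins were close to absent, at 13, 13 and 4 counts summed over the 4 genes, at most 0.490 CPM, against between 42.4 and 48.5 CPM in the hippocampus. Secreted inhibitors also stayed low, between 3.51 and 5.87 CPM in sum, with 1 of 9 tested genes higher and 1 lower in DR.

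Receptors gave 2 of 17 higher and 3 lower in DR, against 9.04% and 10.6% of all genes. In DR-AL, 1 was higher and 2 were lower than in AL, against 5.83% and 8.5%. Fzd8, a Frizzled, fell to 11.8 CPM in DR from 17.4 CPM in AL (-0.56) and stood at 15.8 CPM in DR-AL, and Ror1, a co-receptor for Wnt5a, rose from 6.14 to 7.96 CPM (0.37). The main co-receptor Lrp6 and the R-spondin receptor Lgr4 were at 198 and 292 CPM in AL and differed by 0.10 and 0.04 in DR. Fzd9, another Frizzled and again chosen after its values were seen, had 11, 73 and 62 counts for AL, DR and DR-AL (2.35 and 2.53).

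Among 14 cytoplasmic and secretory components, 1 was higher and none was lower in DR, and none was called in DR-AL. Wls, the carrier that Wnt proteins need to leave the cell, was the one that rose, from 102 to 132 CPM (0.38), and it was at 94.1 CPM in DR-AL. Dvl3, a relay from Frizzled, had 0.23 and 0.16 and was not called. Ctnnb1, which encodes beta-catenin, was at 1091, 1044 and 1057 CPM. Of 8 nuclear genes, Tcf7l1, a TCF factor that mostly represses, was higher in both DR (0.67) and DR-AL (0.73), at 26.7, 42.4 and 44.2 CPM. Bcl9, a beta-catenin partner, was the 1 gene that was lower in DR.

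Another 9 Wnt targets moved in both directions, with 3 higher and 2 lower in DR, and 1 higher and 1 lower in DR-AL. Over the 7 that averaged 10 counts or more, the median was -0.22 in DR and -0.49 in DR-AL. Ephb3, the sister receptor of Ephb2, was at 17.9, 23.8 and 26.6 CPM (0.41 and 0.57 against AL). Cd44, an adhesion molecule of crypt cells, was at 18.3, 12.4 and 12.4 CPM (-0.57 and -0.56). A list of 11 other stem cell genes gave 2 higher and 2 lower. Prom1, a membrane protein of crypt cells, was lower in both DR (-0.50) and DR-AL (-0.54), from 788 CPM in AL. Olfm4, the usual stem cell marker of the small intestine, had 1, 0 and 3 counts.

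Genes of the cell cycle had a larger median difference in DR than the 10 genes. Of 17, 15 were higher in DR with none lower, against 9.04% and 10.6% of all genes. Their median was 1.13 on the log2 scale. In DR-AL, 4 were higher and 3 lower than in AL (median -0.05), against 5.83% and 8.5% of all genes. From DR to DR-AL, 12 of 17 were lower (median -1.09), against 7.67%. Mcm3, part of the helicase that opens DNA for replication, was at 7.95, 17.4 and 13.3 CPM for AL, DR and DR-AL (1.13 and 0.74), and Mcm5 of the same helicase had 280, 719 and 376 counts (1.03 and 0.51). Mki67, the proliferation marker, was chosen after its values were seen and was at 45.4, 131 and 41.2 CPM. Cdca7, Rnf43 and the Axin2 locus were also highest in DR, and all were called lower in DR-AL than in DR. In DR-AL, Cdca7 lay above AL and the other genes below it, none of them called. The DR rise of Rnf43 was not called. Ascl2, Smoc2, Sox9 and Myc, like Mcm3 and Mcm5, were called higher than AL in DR-AL too.

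Of 11 targets of Myc in ribosome building and nucleotide synthesis, 6 were higher in DR and 6 in DR-AL, with none lower, at medians of 0.40 and 0.38. Of all genes, 9.04% were higher in DR and 5.83% in DR-AL. Nolc1, a nucleolar protein, was at 23.4, 38.5 and 41.6 CPM (0.72 and 0.83), and Cad, which starts pyrimidine synthesis, at 13.4, 19.3 and 19.6 CPM (0.53 and 0.55). Of 14 BMP genes, the pathway that opposes Wnt towards the crypt top, 2 were higher and none was lower in DR. In DR-AL, 1 of the 14 was higher than in AL and 3 were lower, with a median of -0.32 over the 12 that averaged 10 counts or more. Bmp2, the 1 higher in DR-AL (0.34), was also higher in DR (0.35). Of 7 Notch genes, 2 were higher in DR: the receptor Notch1 (0.49) and the ligand Dll1 (0.36).

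**Figure D3:**
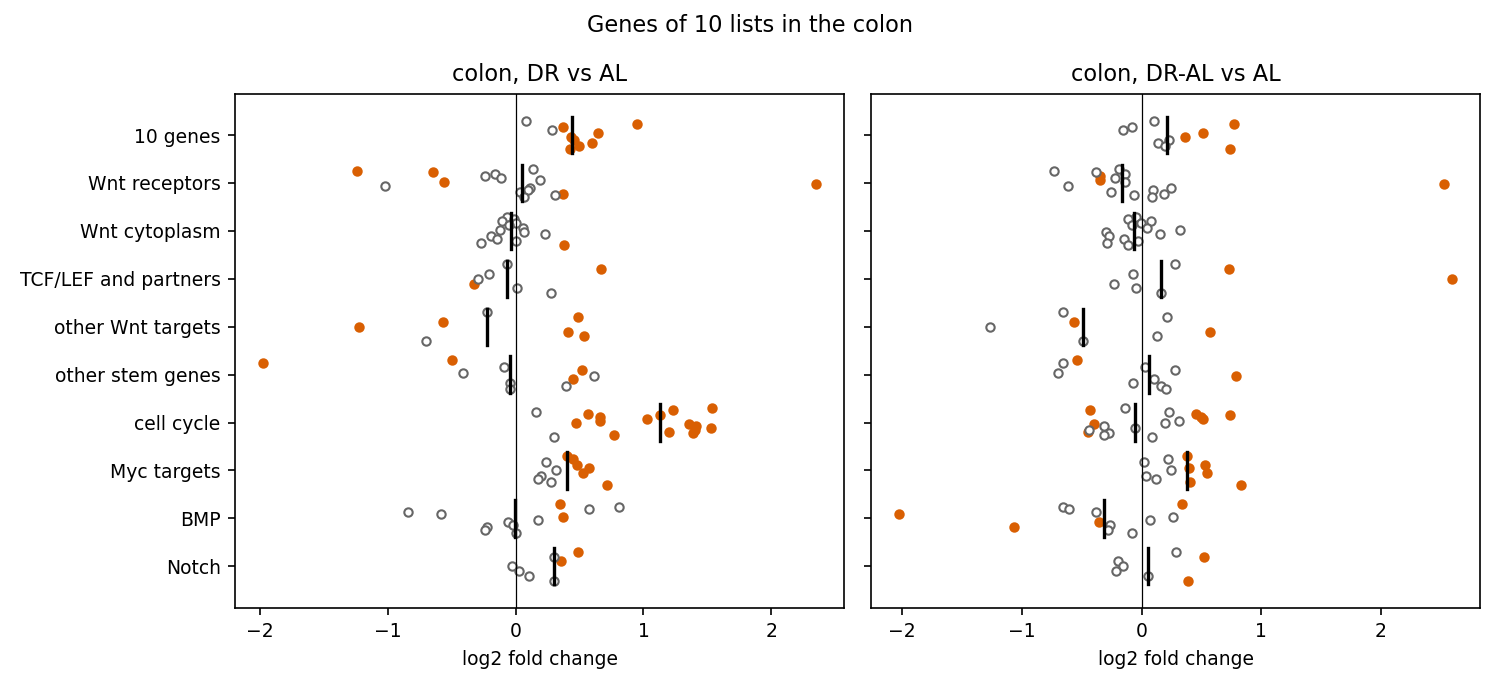
Log2 fold change of single genes that averaged 10 counts or more, grouped by list, in the colon for DR against AL and for DR-AL against AL. Filled points are called and the vertical bars are list medians: the cell cycle list has its median at 1.13 in DR and at -0.05 in DR-AL, and the Myc targets have 0.40 and 0.38.

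Levels can be compared between the 10 genes only per transcript length, as FPKM. Over the 3 colon libraries Sox9 and Lrig1 had the highest means (17.9 and 17.5 FPKM, with each library at 14.4 FPKM or more), followed, with their ranges, by Myc (10.3 to 17.5 FPKM), Cdca7 (11.4 to 16.6 FPKM) and Ephb2 (9.44 to 13.1 FPKM). Next came Smoc2 (6.05 to 10.1 FPKM), Rnf43 (6.93 to 9.61 FPKM), Ascl2 (3.24 to 7.06 FPKM), the Axin2 locus (4.57 to 6.53 FPKM) and Lgr5 (1.18 to 1.36 FPKM). The ranges of all neighbours in that order overlapped, apart from the Axin2 locus and Lgr5.

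To ask which of the genes set the colon apart, the 3 colon libraries were compared with the 3 libraries of each other tissue by edgeR's quasi-likelihood test, with the diets standing in for replicates. The methods describe the same mice as the source of all tissues, so the libraries compared are not independent. Ascl2 was listed at 0 in the 3 liver libraries and had counts in every library of the other tissues. Alb, which liver cells express in abundance, was listed at 0 in all 15 libraries, so a listed 0 need not mean absence. Whether the 0 of Ascl2 in liver is a true absence was not tested, and its liver test is set aside. Of the other 9 genes, 7 were higher in the colon than in liver, and of all 10, 7 were higher than in fat, 7 than in hypothalamus and 8 than in hippocampus, where 31.9%, 30.5%, 35.1% and 35.6% of 17476 genes were. Against liver 1 was lower, against fat 2, against hypothalamus 1 and against hippocampus 1, where 33%, 42%, 42.3% and 41.2% of genes were. Cdca7, Ephb2 and Sox9 were higher than in each of the 4 other tissues, and Ascl2 than in the 3 where its test is used. The Sox9 call against hypothalamus was lost with diet as a block (adjusted p = 0.0570), without the filter on low counts (0.0580), and without the DR (0.272) or the DR-AL libraries (0.187), all by edgeR. These tests used TMM scaling, which set the colon lower relative to liver by 0.73 on the log2 scale (median over the genes) and higher relative to fat by 0.45, to hypothalamus by 0.51 and to hippocampus by 0.26 than scaling to library totals did. With totals, Ascl2, Cdca7 and Ephb2 kept that pattern, Sox9 lost it against hypothalamus, and Rnf43 gained it.

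Ascl2 was, per length in FPKM, the lowest of these 4 genes in fat, hypothalamus and hippocampus. In counts it was at 5.02 ± 1.59 CPM (SD, n = 3) in the colon and at 0.588 ± 0.293 CPM in fat, 0.416 ± 0.0403 CPM in hypothalamus and 0.174 ± 0.0663 CPM in hippocampus. The adjusted p-values of edgeR were 2.78e-05, 7.60e-06 and 2.16e-06 in that order.

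Cdca7 averaged 27.8 ± 6.29 CPM in the colon against between 0.972 and 2.96 CPM in the means of the other tissues. Its log2 fold change ran from 3.68 against fat to 4.77 against hypothalamus, with adjusted p-values of edgeR from 1.45e-09 to 1.88e-08. Ephb2 was at 55.9 ± 8.79 CPM in the colon, 0.604 ± 0.339 CPM in liver, and 33.8 ± 2.40 CPM in hypothalamus and 30.1 ± 2.98 CPM in hippocampus. Eph receptors also guide axons, and the colon exceeded the hypothalamus in Ephb2 by 1.23 on the log2 scale (edgeR, adjusted p = 0.00148).

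Lgr5 did not set the colon apart. Liver had 6.62 ± 0.672 CPM and hypothalamus 7.22 ± 1.05 CPM against 4.88 ± 0.188 CPM in the colon. By edgeR the colon was lower than liver (-1.17, adjusted p = 0.000191) and did not differ from hypothalamus by the test (-0.06, adjusted p = 0.80). With totals in place of TMM those calls changed places, to adjusted p = 0.102 against liver and 0.0353 against hypothalamus, both still below 0 on the log2 scale. In FPKM the order against hypothalamus was the opposite, with 1.18 to 1.36 in the colon and 0.841 to 1.15 in hypothalamus, and liver stayed higher (2.52 to 3.22). Fat (1.11 ± 0.297 CPM) and hippocampus (1.52 ± 0.0998 CPM) were lower than the colon under both scalings. In liver, Lgr5 marks cells around the central vein.

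Rnf43 was 35.5 ± 5.59 CPM in the colon, 19.2 ± 4.63 CPM in liver and 3.13 ± 0.676 CPM in hypothalamus. The liver difference was 0.17 under TMM (edgeR, adjusted p = 0.62) and 0.89 under totals (adjusted p = 0.0255), while the mean FPKM were 7.99 in the colon and 8.08 in liver. Sox9 reached 56.8 ± 8.70 CPM in the colon and 49.1 ± 2.48 CPM in hypothalamus, with 0.72 under TMM (adjusted p = 0.0496) and 0.21 under totals (adjusted p = 0.60). Sox9 is also a gene of glia. Lrig1 was 72.8 ± 12.9 CPM in the colon and 108 ± 7.27 CPM in hypothalamus, and by edgeR the difference was -0.06 under TMM (adjusted p = 0.83) and -0.57 under totals (adjusted p = 0.0336). In FPKM every colon library (14.4 or more) was above every hypothalamus library (13.0 or less), so no direction is drawn.

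Smoc2 was highest in fat, at 69.4 ± 25.9 CPM against 16.6 ± 3.66 CPM in the colon, and was also higher in hippocampus (34.4 ± 2.16 CPM). The differences were -1.62 and -0.79 on the log2 scale for colon against fat and hippocampus (edgeR, adjusted p = 0.00037 and 0.0284). Stromal genes summed to between 2228 and 2476 CPM in fat. Myc was 27.2 ± 6.78 CPM in the colon and 22.6 ± 7.85 CPM in fat, where the difference of 0.71 did not pass (edgeR, adjusted p = 0.089). The Axin2 locus was higher in fat and hypothalamus than in the colon by edgeR, but its mean FPKM were 5.28 in the colon and 5.24 in hypothalamus. In fat its FPKM ran from 4.95 to 7.77, overlapping the 4.57 to 6.53 of the colon, and the fat libraries carry RNA of other organs. Its Cep112 share is unknown in these tissues as well.

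**Figure D4:**
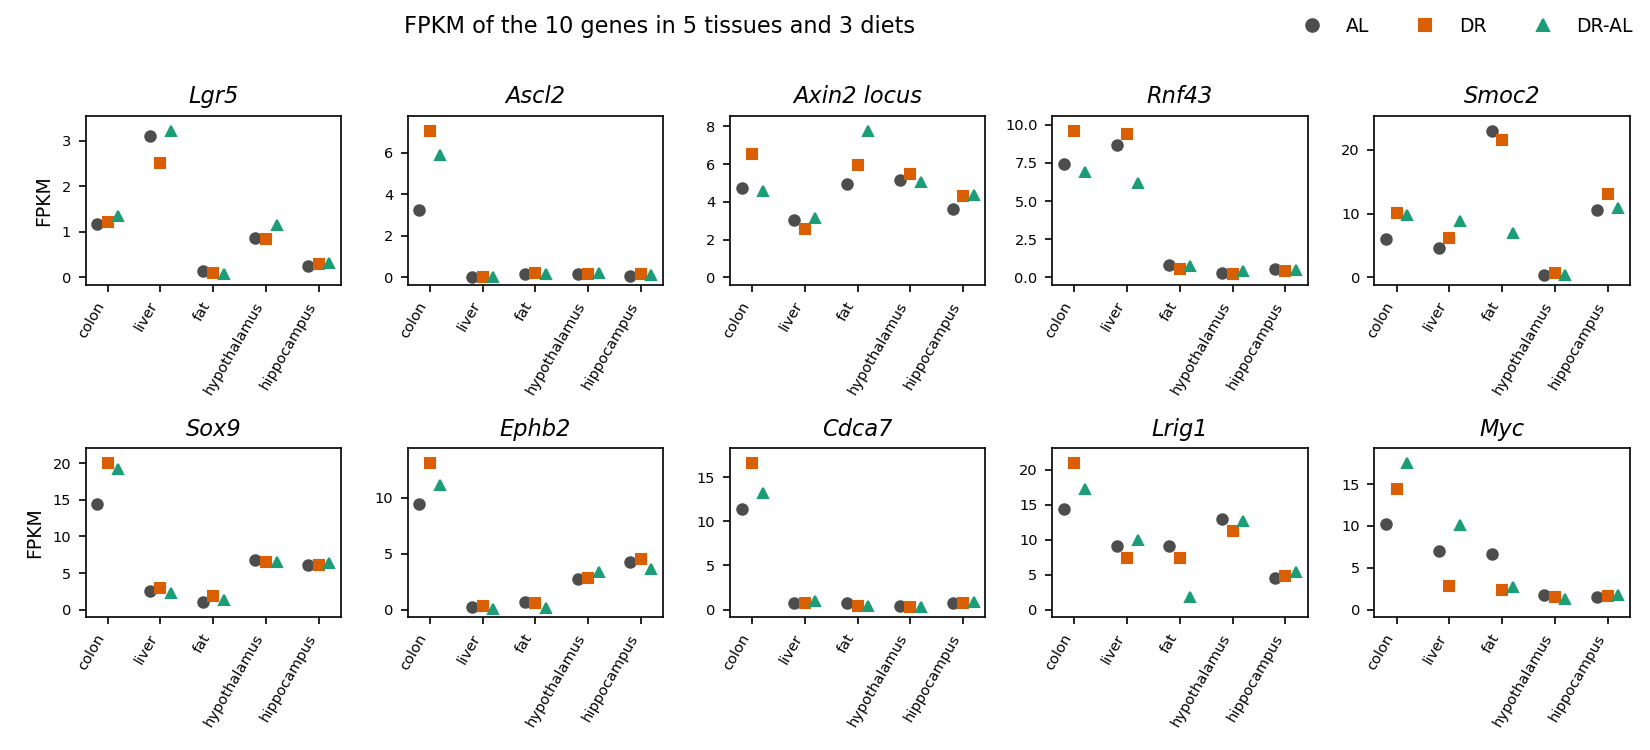
FPKM of each of the 10 genes in the 15 libraries, by tissue along each horizontal axis, with 1 marker per library and diet shown by colour and shape. Ascl2, Cdca7, Ephb2, Sox9, Myc and Lrig1 stand highest in the colon in all 3 diets, Lrig1 narrowly so in AL. Lgr5 is highest in liver and Smoc2 in 2 of the 3 fat libraries.

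The same comparisons were made in the other tissues. In hippocampus none of the 10 genes was called for DR or DR-AL, where 4.03% and 6.15% of genes were. In hypothalamus 1 was higher in DR (Smoc2, 0.71) and none lower, against 4.33% and 2.72% of genes. For DR-AL in hypothalamus, Lgr5 (0.34) and Rnf43 (0.52) were higher and Myc (-0.43) lower, against 6.06% and 9.02% of genes. In liver 1 was lower in DR (Myc, -1.15) and none higher, against 9.92% and 18% of genes. For DR-AL in liver, Myc (0.53) and Smoc2 (0.97) were higher and Rnf43 (-0.52) lower, against 15% and 15.8% of genes. Myc in liver was at 6.87, 3.08 and 9.96 CPM for AL, DR and DR-AL, from 170, 67 and 244 counts. Whether the effect of diet differs between tissues could not be tested with 1 library a group.

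In fat 6 of the 10 genes were higher and 1 lower in DR, against 35.2% and 10.4% of all genes, and 6 were higher and 2 lower in DR-AL, against 46% and 11.9%. The largest difference was that of Sox9, at 5.38, 18.2 and 22.6 CPM for AL, DR and DR-AL. These libraries differ in their RNA from testis, epididymis and liver, as given above, and the part of that RNA in the values was not tested. With FPKM in place of counts, 4 of the 7 (Rnf43, Smoc2, Ephb2 and Lrig1) and 3 of the 8 (Rnf43, Cdca7 and Myc) changed direction. The median of all genes moved by -0.70 and -1.52 with that change of scale, so no direction is drawn for fat.

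**Figure D5:**
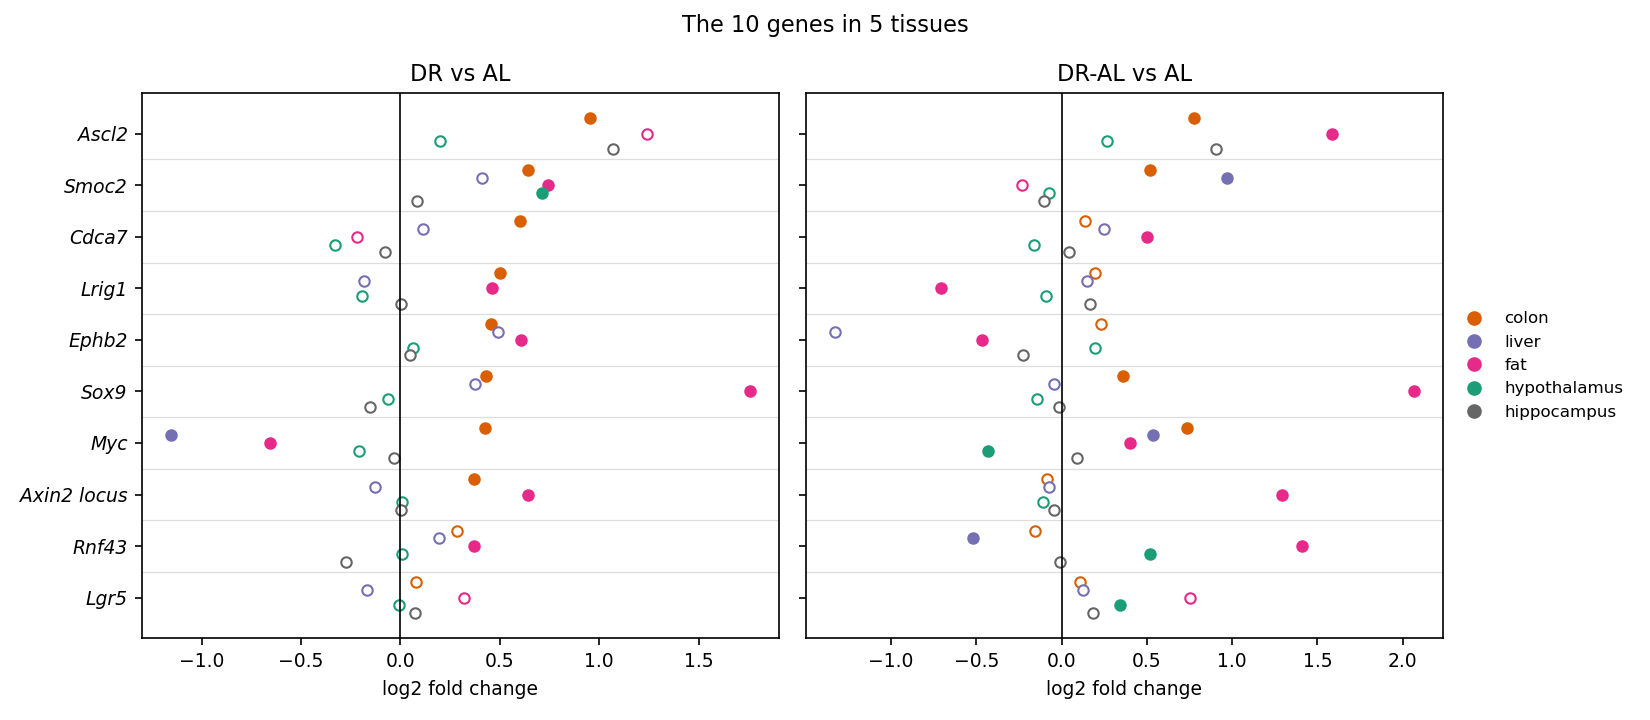
Log2 fold change against AL of each gene in 5 tissues, coloured by tissue, with filled points where called. Colon points lie to the right of 0 for all 10 genes in DR, liver and fat points of Myc lie to the left in DR, and the points of hippocampus are all open.

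Taking all tissues in 1 model, with tissue as a term, edgeR's quasi-likelihood test called none of the 10 genes for either diet, where it called 2 of 17476 genes for DR (0.00572% higher and 0.00572% lower) and 1 for DR-AL (0.00572% higher, 0% lower). The methods describe the tissues of a diet as taken from the same set of mice. The libraries of a diet are therefore not independent replicates of that diet, in this test or the next. At an unadjusted p under 0.05, 1 of the 10 passed in each comparison, Ascl2 with log2 fold changes of 0.81 and 0.81 and adjusted p-values of 1.00 and 0.85. At that level edgeR had 207 of 17476 genes higher and 450 lower for DR, and 356 higher and 506 lower for DR-AL. DESeq2 likewise called none of the 10, with 2 and 1 at an unadjusted p under 0.05. Over all its genes, 326 were higher and 697 lower at that level for DR, and 563 and 746 for DR-AL.

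The genes most like Lgr5, Ascl2 and the Axin2 locus over the 15 libraries were found among 10503 genes by the root mean square difference of centred log2 CPM, which is small where 2 genes go up and down together over tissues and diets. For Lgr5 these were As3mt (0.47), Cdk18 (0.55) and Ppip5k2 (0.57). For Ascl2 they were Fat1 (0.23), Pak4 (0.28) and Sri (0.28), all highest in the colon on average, although the pseudocount of 0.5 narrows the range of a gene as low as Ascl2. For the Axin2 locus they were Nup205 (0.18), Dsn1 (0.22) and Dnajc10 (0.23).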

How the data were processed

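The authors deposited whole-number counts of reads per locus, not normalized, and FPKM values, whose scaling between libraries is not given in the sources used here. According to the methods, low-quality reads were discarded, the rest were aligned to mm10 with Strand software, and duplicates were removed. The submitters' processing notes name mm9 and DESeq2. Of 21384 symbols, 13.6% overlap their GRCm38 position in the table, so GENCODE M21 positions are printed.

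The 10 genes and the 29 other lists were chosen with earlier results of these data known. Counts on named loci were scaled to their total, and the Z test of the methods was applied to genes with at least 1 count over a tissue's 3 libraries. Log2 fold changes use a pseudocount of 0.5 and exact Clopper-Pearson 95% intervals, which cover counting error only. Of each list, up to 2 genes with a mean of at least 100 colon counts are named, those called alike in DR and DR-AL first, otherwise those with the largest DR difference. Tests over 15 libraries used edgeR 4.0.16 with TMM and filterByExpr, and DESeq2 1.42.0. Scripts were tested on simulated data.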

Additional observations from a re-analysis of the deposited data

Results flagged for a closer look

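Myc was called in opposite directions in the colon and in some other tissues, and the difference between tissues was not tested, since each group is 1 library. For DR against AL its log2 fold change was 0.42 in the colon and -1.15 in the liver. For DR-AL against AL it was 0.74 in the colon and -0.43 in the hypothalamus, while in the liver it was 0.53, in the direction of the colon. The fat values were -0.66 for DR and 0.40 for DR-AL, from libraries that carry RNA of other organs, and no direction is drawn from them. No group held the 4 samples needed to look for a sample far from the others.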

How the results depend on the processing

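No paired analysis was possible within a tissue because each diet has 1 library. Between tissues, the fit with diet as a replicate block gave 3 genes higher in the colon than in every other tissue, against 4 without the block (Sox9 was lost, and Ascl2 is counted in each of these on its listed 0 in liver), and changed no other count by more than 1. Without filter the count was 3, with DESeq2 4, and leaving out 1 diet gave between 3 and 4. Without the fat libraries, an alternative chosen after seeing the data, 5 genes were higher in the colon than in the 3 tissues left, and totals without TMM, also chosen then, gave 4, of which 3 were shared.

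In the colon, the 8, 4 and 3 genes called for DR against AL, DR-AL against AL and DR-AL against DR became 0, 0 and 0 at a fold of at least 2. They became 1, 1 and 0 by the exact test with a coefficient of variation of 0.1, and 0, 0 and 0 by the exact test with the dispersion estimated without regard to diet. Scaled to the epithelial list they were 3, 3 and 1, where the 1 is Myc, called higher, and none of the 3 lower genes stayed called. The other alternatives gave between 8 and 9, 4, and between 2 and 4. At a fold of 2, liver kept 0 of 3 for DR-AL, fat 1 of 7 for DR and 4 of 8 for DR-AL, and hypothalamus 0 of 1 and 0 of 3. The share of all genes called at a fold of 2 was not computed for any tissue, so nothing is drawn from what was kept. By the exact test with a coefficient of variation of 0.1, the same counts were 1 for liver, 4 and 5 for fat, and 0 and 0 for hypothalamus. In fat that test called 22.3% of all genes higher and 6.39% lower for DR, and 35.7% and 8.04% for DR-AL. In liver it called 5.64% higher and 4.96% lower for DR-AL. No value of a single gene called in the colon changed sign under any alternative. For the effect shared by tissues, all alternatives called 0 genes, with adjusted p of at least 0.606. The counts of Ascl2 and Lgr5, between 86 and 210, limit what could be seen of them.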

Other observations

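Marker genes of other cell types also differed between the colon libraries. Beside the counts here and in the next paragraph, 9.04% of all genes were higher and 10.6% lower in DR than in AL. For DR-AL against AL the shares were 5.83% and 8.5%, and for DR-AL against DR 6.78% and 7.67%. Tuft cell genes were lower in DR in 4 of 5 cases, among them Dclk1, a kinase that marks these cells, at 16.5, 8.35 and 13.1 CPM for AL, DR and DR-AL (-0.98 and -0.33 against AL), and 4 of 5 were higher in DR-AL than in DR. Immune genes were lower in DR in 5 of 6 cases, at a median of -1.53. Ptprc, the pan-leukocyte antigen, was at 10.3, 4.01 and 13.7 CPM, and Lyz2, of macrophages and neutrophils, at 20.8, 13.1 and 26.2 CPM. Adipocyte genes were lower in DR in 6 of 6 cases, and 5 of 6 were higher in DR-AL than in DR. Cidec, a lipid droplet protein, was lower in DR (-0.76) and was also the 1 of 6 lower than AL in DR-AL (-0.64), where the list median was 0.07.

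Of 8 goblet cell genes, 2 were higher in DR, Agr2 (0.53) and Spink4 (0.49), and none was lower. Of 7 enteroendocrine genes, 1 was lower in DR, Chga (-0.48), and 3 were higher in DR-AL. Of 7 genes of surface colonocytes, 1 was higher and 1 lower in DR, and Car1, a carbonic anhydrase, was lower in DR (-0.55) and DR-AL (-0.80). Of 5 loci of posterior Hox genes, 2 were higher and none lower in DR, and 1 was higher and 2 lower in DR-AL (median -0.03). Hoxb13, the most counted, was higher in both DR (0.54) and DR-AL (0.58). All 6 smooth muscle genes were lower in DR-AL than in AL, at a median of -0.99, among them Acta2 at 12.5, 20.6 and 5.43 CPM for AL, DR and DR-AL, and Myh11 at 10.9, 15.9 and 6.47 CPM. Of 6 small intestine and Paneth cell genes tested, 3 were lower in DR and none higher, and 2 were lower and 1 higher in DR-AL (median 0.17). Sis, a brush border enzyme, was lower in DR (-2.16) and DR-AL (-1.08).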
